A study of Rattus norvegicus with 18 samples.

Results

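The 42 genes described here are genes of endothelial identity and of blood vessel growth: surface and junction proteins of the endothelium, receptors of the VEGF, angiopoietin, Notch and bone morphogenetic protein pathways, vascular transcription factors, and peptide and anticoagulant signals of the vessel wall. They were taken by gene symbol from the authors' lists of changed genes, whose 3 comparisons together name 6588 genes. Of the 42, 34 were listed in ZSF1 obese against ZSF1 lean hearts, 32 in ZSF1 obese against WKY hearts and 0 in ZSF1 lean against WKY hearts. The 32 were all among the 34, and 8 genes were in none of the lists.

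Left ventricles of 18 male rats were studied by sequencing of polyadenylated RNA, 6 in each of 3 groups. ZSF1 obese rats had hypertension together with metabolic syndrome and stood for heart failure with preserved ejection fraction (HFpEF). ZSF1 lean rats had hypertension alone, and Wistar Kyoto (WKY) rats were the controls. The labels give no age, and their batch entry names a kind of RNA, the same for all rats, so library and sequencing batches are unknown. By background knowledge of the strain, ZSF1 rats are a cross of diabetic and hypertensive parent strains, and the obese animals carry mutated leptin receptor alleles from both. WKY rats differ from both ZSF1 groups by strain as well as by disease, and an unknown batch and the group cannot be told apart. The deposited values are 1 fold change and 1 adjusted p-value per gene and comparison, so levels, values per rat and sequencing depth are unknown.

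Endothelial cells line every vessel and are among the most numerous non-muscle cells of the heart. VEGF receptors drive their growth, angiopoietins acting on the Tie receptors set whether vessels are quiet or remodelling, and Notch ligands and receptors divide sprouting cells from those that stay in the vessel wall. Transcription factors of the ETS and SOXF families keep the endothelial genes switched on, and endoglin with ALK1 relays bone morphogenetic protein signals carried in the blood.

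RefSeq promoter sequence (build GRCr8) was at hand for 24 of the 42 genes. Shown are the 250 bases before the annotated start of the 4 genes with the largest rise against lean hearts among those whose window lies wholly outside the annotated gene, as examples of the sequence before genes that rose. The windows of Eng, Egfl7 and Emcn, which rose more than Jag1, reach into the gene and are not shown, and Jag1 was taken before Flt4, which had the same fold, for its smaller adjusted p. Capitals mark the ETS letters AGGAAG or, on the other strand, CTTCCT, and the sequences run from 5′ to 3′ on the gene's own strand.
Plvap, chr16:18231280-18231529, minus strand: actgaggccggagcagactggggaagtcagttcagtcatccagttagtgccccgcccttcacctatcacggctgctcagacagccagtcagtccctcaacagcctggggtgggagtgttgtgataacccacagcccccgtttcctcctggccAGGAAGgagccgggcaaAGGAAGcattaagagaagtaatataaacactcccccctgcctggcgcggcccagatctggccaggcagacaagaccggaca
Procr, chr3:164714477-164714726, plus strand: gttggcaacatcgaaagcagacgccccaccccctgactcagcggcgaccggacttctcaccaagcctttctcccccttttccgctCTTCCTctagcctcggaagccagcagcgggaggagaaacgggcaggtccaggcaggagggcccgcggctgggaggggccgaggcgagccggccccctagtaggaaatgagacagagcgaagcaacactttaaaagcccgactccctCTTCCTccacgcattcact
Edn1, chr17:22666688-22666937, minus strand: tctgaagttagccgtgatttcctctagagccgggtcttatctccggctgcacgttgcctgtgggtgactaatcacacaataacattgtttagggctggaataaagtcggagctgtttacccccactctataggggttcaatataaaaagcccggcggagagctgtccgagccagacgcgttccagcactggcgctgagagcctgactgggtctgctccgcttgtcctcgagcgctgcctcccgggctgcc
Jag1, chr3:144894884-144895133, minus strand: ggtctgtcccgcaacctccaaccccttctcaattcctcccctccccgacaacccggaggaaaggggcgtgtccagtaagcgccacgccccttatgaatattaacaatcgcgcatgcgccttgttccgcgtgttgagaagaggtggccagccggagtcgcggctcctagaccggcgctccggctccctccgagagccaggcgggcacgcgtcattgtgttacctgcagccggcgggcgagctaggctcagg
Plvap and Procr each hold 2 such matches, and the windows of Edn1 and Jag1 hold none. In all, 13 of the 24 windows (54.2%) held AGGAAG on either strand, against 28.9% of 17179 promoters of named protein-coding genes. Among the genes that rose against lean hearts the share was 34.5%. The rarer ETS letters CCGGAA were found in 1 of the 24, that of Kdr, against 17.1% of all promoters. The SOX letters ACAAAG were in 5 of 24 (20.8%, against 14.1% of all promoters) and ACAATG in 3 of 24 (12.5%, against 8.73%). TGGGAA, which the Notch effector RBPJ can bind, was in 5 of 24 (20.8%, against 20.6%), and the forkhead letters TGTTTAC were in 1 of 24, that of Edn1 (4.17%, against 2.68%). All letters were searched on both strands. Window position was compared with the annotated gene only for genes that rose against lean hearts. Not all of these windows lie before the annotated gene. Those of Flt1, Egfl7, Erg and Nrp2 lie wholly inside it, and those of Eng, Emcn, Tie1, Kdr and Mmrn2 partly. Of these, all but Nrp2 and Kdr held AGGAAG on either strand. The position of the windows of Cldn5, Robo4, Heyl, Apln and Nrp1 was not checked, and those of Robo4 and Apln held AGGAAG on either strand. AGGAAG was added after the other shares had been seen, and none of these shares was tested.

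The first comparison sets ZSF1 obese against ZSF1 lean hearts. It asks what differs when metabolic syndrome is added to hypertension. Of the 42 endothelial genes 33 rose in obese hearts (78.6%), 1 fell, and 8 were not listed. As background, 13.3% of 20950 named protein-coding genes in RefSeq were listed as higher and 11.8% as lower, a set that also holds genes silent in the heart. Of the listed genes alone 53.4% were higher. The 33 genes rose with a median fold of 2.91 (range 2.04 to 8.06), and all genes listed as higher had a median fold of 3.01. Their adjusted p-values had a median of 1.25e-19 and were at most 2.03e-08, while the median over all genes listed as higher was 2.95e-12. The endothelial genes thus moved by about the same size as other risen genes, and nearly all of the listed ones in 1 direction.

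The second comparison sets ZSF1 obese against WKY hearts, where strain and disease differ together. It shares the obese rats with the first, so the values of both are given side by side and are not separate evidence. In obese hearts 31 of the 42 genes were higher than in WKY hearts (73.8%), 1 was lower and 10 were not listed, beside 13.5% of RefSeq genes that were higher and 11.7% that were lower, and 54.0% of listed genes that were higher. The 31 had a median fold of 3.23 (range 2.06 to 6.45), against 3.05 for all genes listed as higher.

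**Figure D1:**
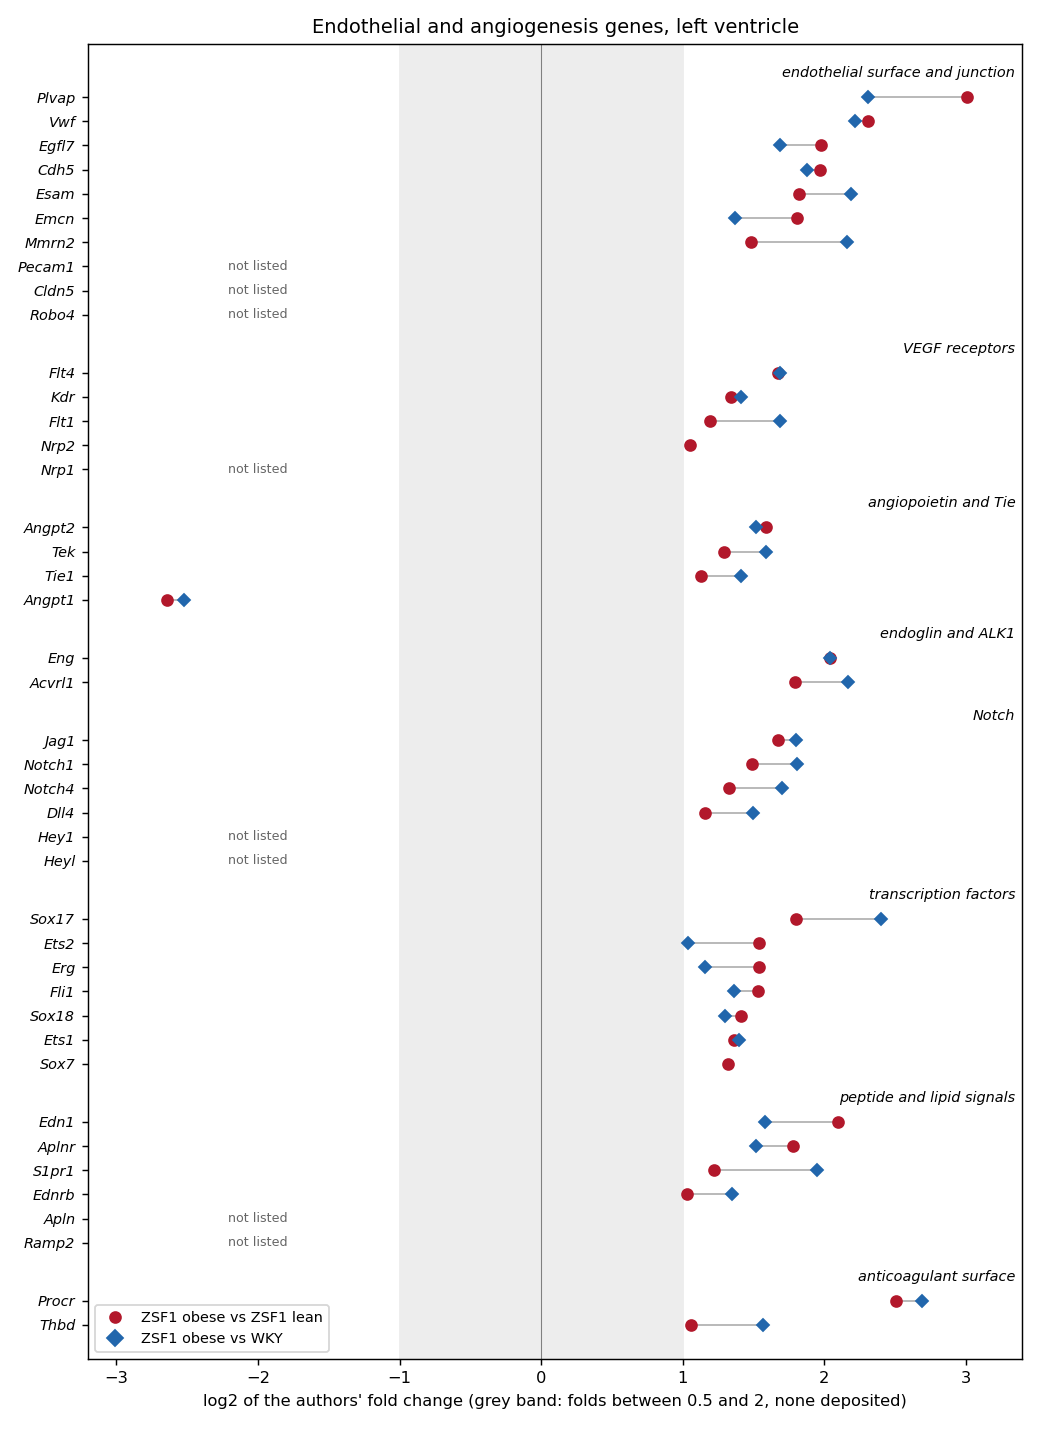
The log2 of the authors' fold change is plotted for the 42 endothelial and angiogenesis genes, grouped by role, with circles for ZSF1 obese against ZSF1 lean and diamonds for ZSF1 obese against WKY. The risen genes lie between folds of 2.04 and 8.06, Angpt1 alone lies on the left, Sox7 and Nrp2 have no diamond because they were listed against lean hearts only, and 8 genes are marked as not listed.

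**Figure D2:**
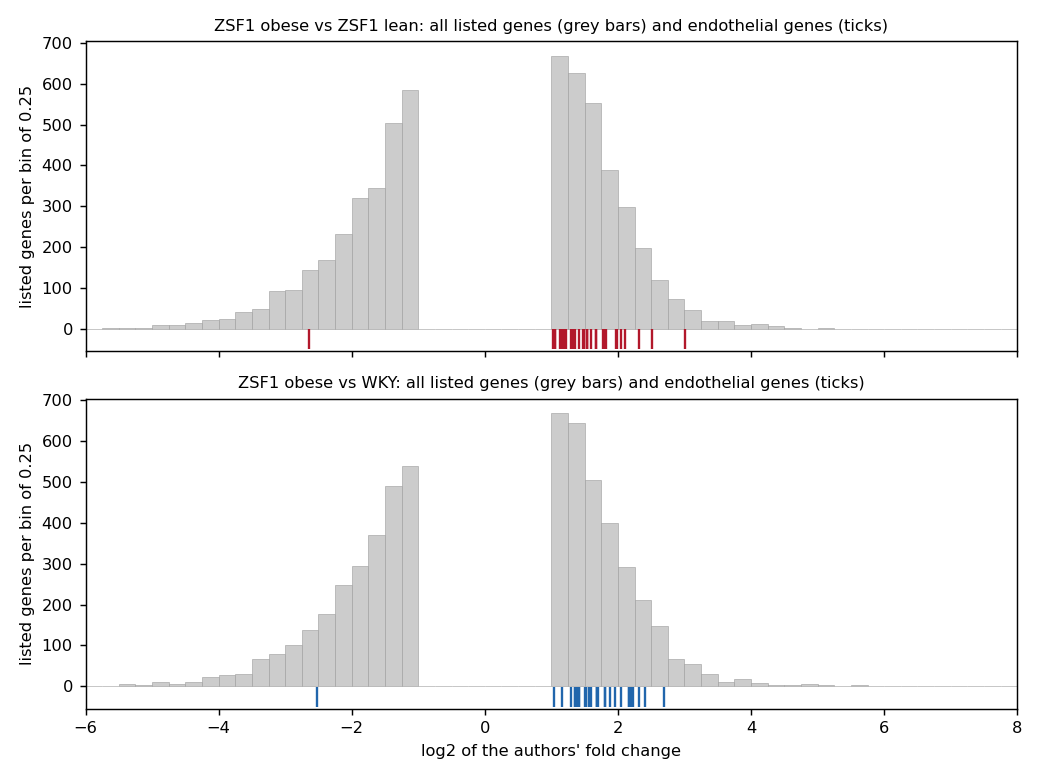
Grey bars count all listed genes by the log2 of the authors' fold change, in bins of 0.25 and with no genes between folds of 0.5 and 2, for ZSF1 obese against ZSF1 lean (upper panel) and ZSF1 obese against WKY (lower panel). The ticks under the bars are the 34 and 32 listed endothelial genes, which sit within the body of the risen genes except for Angpt1 among the fallen ones.

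The surface and junction genes of the endothelium held the largest rise against lean hearts. Of 10 such genes 7 rose in each obese comparison. Plvap (ENSRNOG00000017676), which forms the diaphragms of fenestrated vessels and is scarce in the continuous capillaries of healthy heart, had a fold of 8.06 in obese against lean hearts (adjusted p = 7.12e-19) and of 4.96 in obese against WKY hearts (adjusted p = 1.32e-10) in the authors' deposited table. Against lean hearts 96.2% of the risen genes had a smaller fold than Plvap. Vwf (ENSRNOG00000019689), the clotting protein stored by endothelium and platelets, had folds of 4.96 against lean hearts (adjusted p = 2.64e-21) and 4.66 against WKY hearts (adjusted p = 1.57e-17) in the authors' deposited table. Platelet markers (Pf4, Ppbp, Itga2b, Gp9 and Gp1bb) were listed in 0 of 5 cases, beside 13.3% of RefSeq genes higher against lean hearts. A count this small is not read as a result, and the part of platelets in the rise of Vwf was not tested.

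Cdh5 (ENSRNOG00000013324), the VE-cadherin of endothelial junctions, stood at folds of 3.92 against lean hearts (adjusted p = 2.92e-27) and 3.68 against WKY hearts (adjusted p = 8.82e-20) in the authors' deposited table. For Esam, an adhesion molecule of the same junctions, the authors' deposited table gave 3.53 (adjusted p = 1.57e-39) and 4.56 (adjusted p = 1.52e-44) in the same order. Egfl7, a secreted endothelial matrix protein, had folds of 3.95 and 3.23, and Emcn, a sialomucin of capillaries and veins, of 3.51 and 2.59 against lean and WKY hearts in the authors' deposited table. Mmrn2, an endothelial matrix protein, was listed at 2.79 against lean and 4.47 against WKY hearts in the authors' deposited table. Esam and Mmrn2 had the larger fold against WKY hearts, and Cdh5, Egfl7 and Emcn against lean hearts, differences that were not tested. Pecam1, the CD31 antigen found on all endothelium, was in none of the lists, and neither were Cldn5, the tight junction claudin of endothelium, and Robo4, a guidance receptor of quiet vessels. A gene outside the lists may have changed by less than 2-fold, missed the threshold or not been detected, and these cannot be told apart here.

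Of the 5 VEGF receptor and coreceptor genes 4 rose against lean hearts and 3 against WKY hearts, with folds between 2.07 and 3.23. Flt4, the receptor for VEGF-C, had folds of 3.18 against lean hearts (adjusted p = 2.20e-22) and 3.23 against WKY hearts (adjusted p = 6.63e-17) in the authors' deposited table. Kdr, the main growth receptor for VEGF-A, stood at 2.53 (adjusted p = 8.58e-17) and 2.66 (adjusted p = 3.28e-17), and Flt1, which also acts as a decoy for VEGF-A, at 2.28 (adjusted p = 4.88e-12) and 3.23 (adjusted p = 5.99e-20) in the authors' deposited table. Nrp2, a coreceptor, was listed against lean hearts only, with a fold of 2.07 close to the listing threshold of 2 (adjusted p = 1.02e-09) in the authors' deposited table. Nrp1, the other neuropilin, was not listed.

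Among 15 further genes of the VEGF, semaphorin and plexin axis 4 rose and 2 fell against lean hearts, and 7 rose and 2 fell against WKY hearts. As background, 13.3% of named protein-coding RefSeq genes were higher and 11.8% lower against lean hearts (13.5% and 11.7% against WKY hearts). Vegfb, a VEGF receptor 1 ligand abundant in heart muscle, fell to 0.225 of the lean level (adjusted p = 4.51e-23) and to 0.173 of the WKY level (adjusted p = 2.48e-26) in the authors' deposited table. Vegfc, the ligand of Flt4, rose with folds of 2.19 and 2.28 against lean and WKY hearts in the authors' deposited table. Plxnd1, a semaphorin receptor of endothelium, had folds of 2.46 and 2.40, and Plcg1, a phospholipase that acts below Kdr, of 2.07 and 2.06 in the authors' deposited table. The other gene that fell was the plexin Plxna4, at 0.46 of the lean and 0.395 of the WKY level in the authors' deposited table. Pgf, also in this list, had folds of 2.81 and 4.29 against lean and WKY hearts in the authors' deposited table. Vegfb was thus lower and Vegfc and Pgf higher, while the listed receptors of the VEGF family rose. Vegfa was not listed.

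The angiopoietin axis was the 1 group with members on both sides. Angpt1 (ENSRNOG00000005854), the ligand that activates the Tie2 receptor and keeps vessels quiet, fell to 0.16 of the lean level (adjusted p = 1.22e-17) and to 0.174 of the WKY level (adjusted p = 1.25e-16) in the authors' deposited table. It was the sole gene of the 42 listed as lower. Angpt2, released by activated endothelium and an antagonist of Tie2 in many settings, rose with folds of 3.01 against lean hearts (adjusted p = 2.27e-11) and 2.87 against WKY hearts (adjusted p = 6.64e-10) in the authors' deposited table.

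Tek, which encodes Tie2, had folds of 2.45 (adjusted p = 1.12e-20) against lean and 3.01 (adjusted p = 4.53e-24) against WKY hearts in the authors' deposited table. For Tie1, its partner receptor, the authors' deposited table gave 2.19 (adjusted p = 3.03e-13) and 2.66 (adjusted p = 8.58e-21). Of 6 further genes of this axis 1 rose and 1 fell in each comparison. The shares of named protein-coding RefSeq genes were 13.3% higher and 11.8% lower against lean hearts (13.5% and 11.7% against WKY hearts). Counts this small over 6 genes are not read as a result about the axis. Foxo1, a transcription factor that Tie2 signalling restrains, stood at 0.463 of the lean and 0.418 of the WKY level, and Dok2, an adaptor of Tie2 that blood cells also express, had folds of 2.31 and 3.39 in the authors' deposited table.

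Angpt1 is made by cells around the vessels and, in the mouse heart, by heart muscle, not mainly by endothelium. Of 8 pericyte markers 1 rose and 1 fell in each comparison, near the 13.3% of RefSeq genes higher and 11.8% lower against lean hearts. Ndufa4l2 had folds of 2.31 and 2.20, and Rgs5 stood at 0.486 of the lean and 0.476 of the WKY level in the authors' deposited table. Of 10 cardiomyocyte markers 5 fell and 0 rose in each comparison. Their part in the fall of Angpt1 was not tested. Angpt1 also has the longest span of the 42 genes (252.7 kb in RefSeq, GRCr8), and of all genes listed against lean hearts with a span of 100 kb or more 41.0% rose, against 55.3% of those with shorter spans. The other 7 listed endothelial genes with spans of 100 kb or more (Tek, Flt1, Vwf, Erg, Fli1, Ets1 and Nrp2) rose, as did all 26 with shorter spans. The part of gene span in the fall of Angpt1 was not tested.

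Endoglin and ALK1 rose with adjusted p-values among the smallest of the endothelial genes. Eng (ENSRNOG00000050190), a coreceptor for BMP9 and TGF-beta, had a fold of 4.11 against both lean hearts (adjusted p = 2.84e-53) and WKY hearts (adjusted p = 8.20e-46) in the authors' deposited table. Acvrl1 (ENSRNOG00000028713), which encodes ALK1, stood at 3.46 against lean (adjusted p = 1.52e-49) and 4.50 against WKY hearts (adjusted p = 3.68e-58) in the authors' deposited table. Of 11 further genes of this pathway 4 rose against lean hearts and 5 against WKY hearts, with 0 falls. Over named protein-coding RefSeq genes the shares were 13.3% higher and 11.8% lower against lean hearts (13.5% and 11.7% against WKY hearts). The direct targets Id1 and Id3 had folds of 3.36 and 2.71 against lean hearts and of 4.96 and 3.43 against WKY hearts in the authors' deposited table. Smad1, which carries the signal to the nucleus, was listed at 2.48 and 2.33, and Smad6, an inhibitor that the pathway induces, at 2.35 and 2.89 in the authors' deposited table. Bmpr2, the type II receptor, was not listed.

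Notch receptors and ligands rose together. Jag1, a ligand, had folds of 3.18 against lean hearts (adjusted p = 5.61e-38) and 3.48 against WKY hearts (adjusted p = 2.72e-31) in the authors' deposited table. Notch1 stood at 2.81 (adjusted p = 2.55e-23) and 3.51 (adjusted p = 3.80e-25), and the endothelial receptor Notch4 at 2.51 (adjusted p = 2.47e-12) and 3.25 (adjusted p = 1.61e-13) in the authors' deposited table. Dll4, the ligand of arterial and sprouting cells, had folds of 2.24 (adjusted p = 1.73e-09) and 2.83 (adjusted p = 2.99e-13) in the authors' deposited table. Hey1 and Heyl, target genes of Notch, were not listed.

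Of 18 further Notch genes 4 rose and 1 fell against lean hearts, and 5 rose and 1 fell against WKY hearts. As background, 13.3% of named protein-coding RefSeq genes were higher and 11.8% lower against lean hearts (13.5% and 11.7% against WKY hearts). Mfng, a glycosyltransferase that modifies Notch receptors, had folds of 3.56 (adjusted p = 4.45e-50) and 3.92 (adjusted p = 1.20e-52), and the feedback inhibitor Nrarp of 2.60 and 2.69 in the authors' deposited table. Dll1 was listed at 2.17 and 3.05 and Notch2 at 2.04 and 2.19 in the authors' deposited table. The target Hey2, which heart muscle also expresses, fell to 0.444 of the lean level (adjusted p = 1.37e-06) and 0.382 of the WKY level (adjusted p = 2.22e-10) in the authors' deposited table. Listed receptors and ligands were therefore higher, as was Nrarp, and Notch3 and Jag2 were not listed. Of the 3 Hey genes 1 was lower and 2 were not listed. Whether Notch targets followed the receptors was not tested.

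All 7 vascular transcription factors rose against lean hearts, and 6 of them against WKY hearts. Sox17, a SOXF factor of arterial endothelium, had folds of 3.48 (adjusted p = 2.34e-33) against lean and 5.28 (adjusted p = 4.65e-50) against WKY hearts in the authors' deposited table. Sox18, a SOXF factor of blood and lymph vessels, stood at 2.66 and 2.46, and Sox7, the other family member, at 2.50 against lean hearts only (adjusted p = 5.31e-10) in the authors' deposited table. Whether Sox7 differed between the comparisons was not tested.

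Erg and Ets2, neighbours on rat chromosome 11, both had a fold of 2.91 against lean hearts, with adjusted p-values of 4.38e-19 and 1.91e-33, in the authors' deposited table. Against WKY hearts the authors' deposited table gave 2.24 for Erg and 2.06 for Ets2. Fli1 and Ets1, neighbours on rat chromosome 8, had folds of 2.89 and 2.57 against lean hearts and of 2.57 and 2.64 against WKY hearts in the authors' deposited table. Erg is an ETS factor of endothelium, whereas Fli1 and Ets1 are also expressed by lymphocytes and other blood cells. Of 8 lymphocyte markers 5 rose against lean and 4 against WKY hearts, and of 8 macrophage markers 7 and 8 rose. The shares of named protein-coding RefSeq genes that were higher were 13.3% and 13.5%. The part of blood cells in the rise of Fli1 and Ets1 was not tested.

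Peptide and lipid signals of the vessel wall rose in 4 of 6 cases in each comparison. Edn1 (ENSRNOG00000014361), the vasoconstrictor endothelin, had a fold of 4.29 against lean hearts (adjusted p = 1.17e-08) and of 2.99 against WKY hearts (adjusted p = 1.05e-06) in the authors' deposited table. Its receptor on endothelium, Ednrb, stood at 2.04 (adjusted p = 3.24e-10) and 2.55 (adjusted p = 3.00e-20) in the authors' deposited table. Among the risen genes of the 42, Ednrb had the lowest fold against lean hearts. Aplnr, the apelin receptor, had folds of 3.43 (adjusted p = 2.95e-14) and 2.87 (adjusted p = 3.22e-14) in the authors' deposited table, while its ligand gene Apln was not listed. S1pr1, the sphingosine-1-phosphate receptor that steadies junctions, stood at 2.33 (adjusted p = 1.25e-15) and 3.86 (adjusted p = 1.76e-31) in the authors' deposited table. Ramp2, the adrenomedullin receptor partner of endothelium, was not listed.

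Of 13 further genes of these axes 5 rose and 0 fell against lean hearts, and 6 rose and 1 fell against WKY hearts. Named protein-coding RefSeq genes were higher in 13.3% and lower in 11.8% of cases against lean hearts (13.5% and 11.7% against WKY hearts). Spns2, the exporter of sphingosine-1-phosphate, had folds of 3.32 and 4.41, and Ece1, which cleaves the endothelin precursor, of 2.43 and 2.75 in the authors' deposited table. Calcrl, the receptor that pairs with the Ramp proteins, was listed at 2.40 and 2.28 in the authors' deposited table. Ramp1 had folds of 4.41 and 6.45 and Ramp3 of 7.21 and 7.26 in the authors' deposited table. Of the Ramp genes, 2 rose with their receptor partner and Ramp2 was not listed. Ednra, the endothelin receptor of smooth muscle and heart muscle, was the gene that fell, to 0.497 of the WKY level (adjusted p = 1.01e-17) in the authors' deposited table.

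Both anticoagulant surface genes rose in each comparison. Procr (ENSRNOG00000019330), the endothelial protein C receptor, had folds of 5.70 against lean hearts (adjusted p = 1.90e-42) and 6.45 against WKY hearts (adjusted p = 1.49e-46) in the authors' deposited table. Thbd, thrombomodulin, which activates protein C with thrombin, stood at 2.09 (adjusted p = 2.03e-08) and 2.97 (adjusted p = 5.93e-22) in the authors' deposited table. Of 10 further genes of clotting and fibrinolysis 6 rose and 0 fell in each comparison. Beside them, 13.3% of named protein-coding RefSeq genes were higher and 11.8% lower against lean hearts (13.5% and 11.7% against WKY hearts). Against lean and WKY hearts Plat, tissue plasminogen activator, had folds of 2.99 and 5.46, and the thrombin receptor F2r of 3.73 and 3.51 in the authors' deposited table. Anxa2 was listed at 3.61 and 3.97 and Plaur, the urokinase receptor, at 3.10 and 4.79 in the authors' deposited table. Several of these genes are also expressed by macrophages and fibroblasts.

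Listed endothelial genes outside the 42 were also higher, in a list chosen with earlier results of these data known, so not as separate evidence. Of 20 further endothelial markers 16 rose against lean hearts and 15 against WKY hearts, with 0 falls. As background, 13.3% and 13.5% of named protein-coding RefSeq genes were higher. The risen markers had median folds of 3.02 and 3.23, and Cd34, Cd93, Ptprb and Gpihbp1 were not listed. Ecscr had folds of 4.41 and 3.63, Clec14a of 3.48 and 3.14, Icam2 of 3.61 and 4.35 and Rasip1, a regulator of vessel lumens, of 4.29 and 4.66 in the authors' deposited table. The leukocyte adhesion genes of activated endothelium rose in 4 of 4 cases in each comparison, with folds against lean and WKY hearts of 9.38 and 9.00 for Selp, 6.23 and 4.96 for Vcam1, 5.43 and 5.70 for Icam1 and 2.66 and 5.78 for Sele in the authors' deposited table. Venous markers rose in 4 of 5 cases in each comparison, among them Nr2f2, a venous transcription factor, with 4.23 and 3.01 in the authors' deposited table. Arterial markers rose in 4 of 7 cases and fell in 1 against lean hearts (5 and 1 against WKY hearts), with folds of 2.87 and 3.34 for Gja4 and 2.41 and 3.66 for Gja5, both connexins, in the authors' deposited table. The arterial gene that fell was Hey2, and Selp and Vcam1 are in both the venous and the activated list.

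Genes of a list for tip or angiogenic endothelial cells rose in 5 of 6 cases in each comparison. Folds were 3.25 and 3.53 for Mcam, 3.48 and 2.77 for Cxcr4, 2.57 and 2.83 for Pdgfb, and 2.81 and 4.29 for Pgf in the authors' deposited table. Pgf is also in the VEGF list. Which cells carried these rises was not tested. Endocardial markers rose in 2 of 4 cases in each, with folds of 4.23 and 5.74 for Cytl1 in the authors' deposited table. Of 6 lymphatic markers 1 rose and 1 fell against lean hearts, and 2 rose and 1 fell against WKY hearts. Among named protein-coding RefSeq genes 13.3% were higher and 11.8% lower against lean hearts (13.5% and 11.7% against WKY hearts). Lymphatic counts this small are not read as a result about lymphatic vessels. Prox1, a lymphatic transcription factor that heart muscle also expresses, stood at 0.179 of the lean and 0.112 of the WKY level, and Pdpn had folds of 2.91 and 3.43 in the authors' deposited table. In 10 genes of Slit, netrin and ephrin guidance 4 rose and 1 fell against lean hearts and 3 rose against WKY hearts, with 2.33 and 2.55 for Ephb4 and 2.48 and 3.39 for Slit3 in the authors' deposited table. The gene that fell was Ntn1, at 0.382 of the lean level in the authors' deposited table.

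Of 10 genes of the hypoxia response 0 rose and 2 fell against lean hearts, and 0 rose and 3 fell against WKY hearts. With 13.3% of named protein-coding RefSeq genes higher and 11.8% lower against lean hearts (13.5% and 11.7% against WKY hearts), counts this small over 10 genes are not read as a result about the pathway. Egln3, an oxygen sensor that hypoxia induces, stood at 0.136 of the lean and 0.116 of the WKY level and Bnip3 at 0.158 and 0.150 in the authors' deposited table. Slc2a1 stood at 0.409 of the WKY level in the authors' deposited table. Of 10 cardiomyocyte markers 5 were listed in each comparison, all as lower, between 0.084 (Atp2a2) and 0.344 (Ryr2) of the lean level and between 0.097 (Atp2a2) and 0.371 (Ryr2) of the WKY level in the authors' deposited table. Their part in the fall of Egln3, Bnip3 and Slc2a1 was not tested.

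Markers of several other cell types also rose. Of 8 pericyte markers 1 rose and 1 fell in each comparison, and of 5 platelet markers 0 were listed. These counts are near the shares of named protein-coding RefSeq genes, 13.3% higher and 11.8% lower against lean hearts. Against WKY hearts the shares were 13.5% and 11.7%. The pericyte and platelet counts are not read as a result about these cells. Against lean hearts 5 of 8 fibroblast markers, 7 of 8 macrophage markers and 4 of 4 neutrophil markers rose with 0 falls, and 5 of 7 smooth muscle markers rose with 1 fall. Against WKY hearts 6 of 8 fibroblast, 8 of 8 macrophage and 1 of 4 neutrophil markers rose with 0 falls, and 4 of 7 smooth muscle markers rose with 1 fall, that of Des, which striated muscle also expresses. In lean against WKY hearts, where 0 of the 42 endothelial genes were listed, 3 of 4 neutrophil markers were lower: Csf3r stood at 0.33, S100a9 at 0.33 and Mmp8 at 0.35 of the WKY level in the authors' deposited table. More endothelial cells, less RNA from heart muscle and more RNA per endothelial cell cannot be told apart in bulk tissue with these values. The part of cell composition in the rise of the endothelial genes was not tested.

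**Figure D3:**
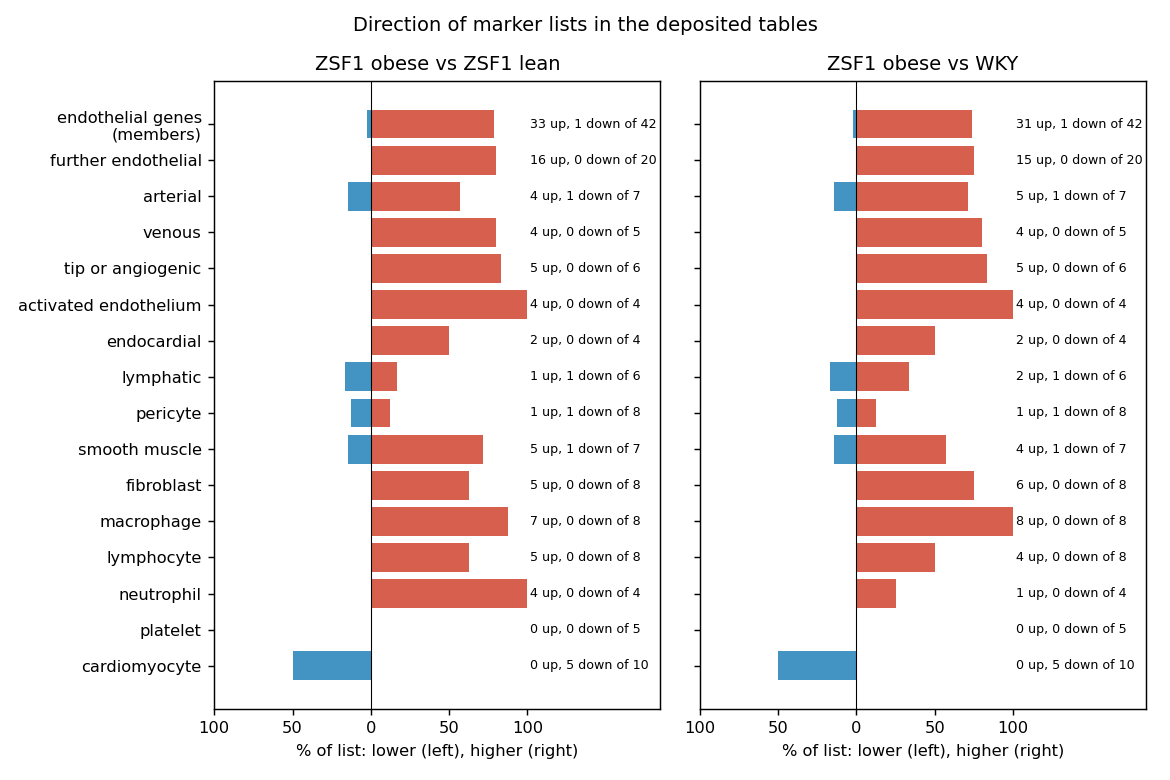
The share of each list that was higher (right of 0) or lower (left of 0), in percent of its genes, is shown for ZSF1 obese against ZSF1 lean and ZSF1 obese against WKY, with counts beside the bars. Endothelial genes rose in 33 and 31 of 42 cases, further endothelial markers in 16 and 15 of 20, and cardiomyocyte markers fell in 5 of 10 in both.

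The third comparison, ZSF1 lean against WKY, sets hypertension on the ZSF1 background against the control strain. It listed 233 genes, and 0 of the 42 endothelial genes and 0 of the 20 further endothelial markers were among them, beside 0.654% of RefSeq genes that were higher and 0.320% that were lower. A count of 0 is near these shares and says nothing particular of the endothelial genes. A description of the lean against WKY step came from the 32 endothelial genes in both obese lists, as the log2 fold against WKY minus that against lean. The obese rats enter both terms. This difference had a median of 0.10 (lowest -0.70 for Plvap, highest 0.73 for S1pr1), and it was above 0 for 19 genes, below 0 for 12 and 0.00 for Eng. Over all 4847 genes in both obese lists 48.9% were above 0, the median was 0.00 and the middle values ran from -0.19 to 0.21 (lower and upper quartile).

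The next lowest values were -0.52 for Edn1, -0.50 for Ets2 and -0.44 for Emcn, and the next highest were 0.68 for Mmrn2, 0.60 for Sox17 and 0.51 for Thbd. For 79 genes listed in all 3 comparisons the deposited lean against WKY log2 fold was subtracted from this difference. The signed result had a median of 0.22 (quartiles -0.06 and 0.70, range -1.82 to 2.56). That median is larger than the 0.10 of the endothelial genes, and the order of single endothelial genes by this difference is not established. The difference carries no error of its own and was not tested.

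**Figure D4:**
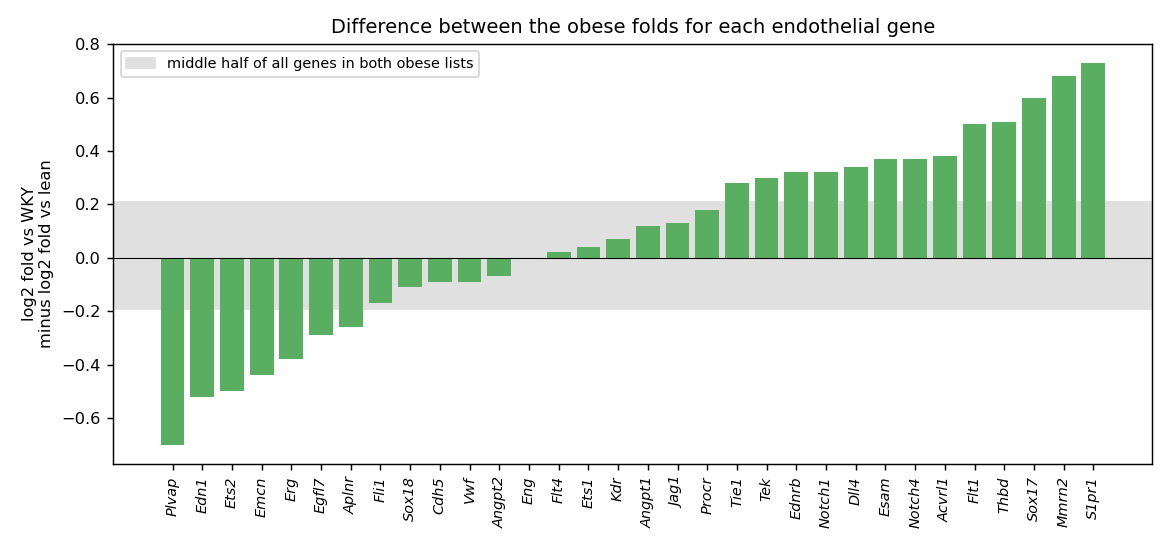
Bars give, for the 32 endothelial genes in both obese lists, the log2 fold of ZSF1 obese against WKY minus that of ZSF1 obese against ZSF1 lean, and the grey band spans the lower to upper quartile (-0.19 to 0.21) of all 4847 genes in both lists. The values run from -0.70 for Plvap to 0.73 for S1pr1.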

How the data were processed

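Per the labels' protocols, a Qiagen RNeasy kit gave the RNA, whose polyadenylated part went into stranded TruSeq libraries. The submitters' processing notes name HISAT2 2.1.0, HTSeq 0.11.2, DESeq2 1.22.2 and the build Rnor_6.0; settings and strand handling were not stated. Per the file headers, the authors deposited for each gene a linear fold change, the ratio of the group named first over the other, and an FDR, an adjusted p-value. On the values, every deposited gene passed an FDR of 0.05 and changed by 2-fold or more. No counts or values per rat were used, so no model was fitted, and the planned replicate checks were not run.

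From the deposited values, log2 folds, counts by direction and medians were computed with Python 3.11.15 and pandas 2.3.3; counting was tested on simulated data. Genes were matched by symbol. All 42 were in RefSeq (GRCr8), as were 93.1%, 93.3% and 88.8% of symbols listed for obese against lean, obese against WKY and lean against WKY. The number of genes the authors tested is unknown, so background shares use 20950 named protein-coding RefSeq genes.

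The 42 genes, the lists and the comparisons were chosen with earlier results of these data known. Every listed gene of the 42 is named. From the further lists, genes were named from among the 4 with the smallest adjusted p against lean hearts. Not all of these are named: Epha2, Efna1, Fbln5, Bmx and Smoc1 are left out, for example. No fibroblast, macrophage or lymphocyte marker is named. Hey2, Plxna4, Ramp3, Ednra, Slc2a1 and Ntn1, Pgf as a gene of the VEGF list, and unlisted genes outside the 42, were named after their values were seen.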

Additional observations from a re-analysis of the deposited data

How the results depend on the processing

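Stricter thresholds on the authors' FDR (0.01 and 0.001) and matching of synonyms left all counts of endothelial genes as reported. The FDR thresholds could remove none of them, since the largest adjusted p was 2.03e-08 against lean and 1.05e-06 against WKY hearts. A fold of at least 3 left 15 higher genes in obese against lean hearts and 17 in obese against WKY hearts, and a fold of at least 4 left 5 and 8; Angpt1 remained lower in both. Without 12 genes that other heart cells also express, 24 of 30 were higher against lean and 23 of 30 against WKY hearts, and 0 were lower in either, since Angpt1 is among those left out. Counts for lean against WKY hearts were 0 under each alternative. For all but the matching of synonyms this was fixed, because no endothelial gene was listed there. No paired analysis was possible because the deposited lists hold no values per rat. For the same reason leaving out each rat, another normalisation and a filter on low counts were not run, and depth sets no limit that can be stated.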

Other observations

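Within these data 3 pairs of the 42 endothelial genes stand next to each other among protein-coding genes in RefSeq (GRCr8): Erg with Ets2, Fli1 with Ets1, and Notch1 with Egfl7. Both genes of each pair rose in both obese comparisons. Of all 42 genes 33 (78.6%) rose against lean and 31 (73.8%) against WKY hearts. Whether neighbours rose together more often than other endothelial genes was not tested. Esam and Robo4 are separated by 2 protein-coding genes on chromosome 8. Esam was listed in both obese comparisons and Robo4 in none.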
